A study of Homo sapiens with 6 samples.

Results

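The genes described here encode aminoacyl-tRNA synthetases, the enzymes that attach each amino acid to its transfer RNA. They were chosen by name, as 19 genes for enzymes of the cytosol and 16 for enzymes of the mitochondria. Their current symbols were matched to the gene IDs of the tables, in which some carry older symbols (CARS for CARS1, EPRS for EPRS1). All 35 were found among 58884 gene IDs, and all 35 passed the filter on low counts that left 14334 genes to test. The list does not hold every synthetase gene of the genome. It was chosen with earlier results of these data known, so that an excess of called genes may follow in part from that choice.

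The RNA came from HCT116, a widely used human cell line of colorectal cancer. In the siMatrin3 group the cells were transfected with a pool of siRNAs against Matrin3, an RNA-binding protein of the nuclear matrix, and in the siCTRL group with a negative control siRNA. RNA was taken after 48 h from 3 cultures of each group, which the study describes as biological triplicates, depleted of ribosomal RNA and sequenced. The comparison of siMatrin3 with siCTRL asks how loss of Matrin3 changes gene expression in this line, so each value below holds for 1 cell line, 1 siRNA pool and 1 time.

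MATR3, which encodes Matrin3, checks the labels. It was at 72.4, 67.9 and 71.4 CPM (counts scaled to a common library total adjusted by TMM) in siMatrin3, against 363, 343 and 330.2 CPM in siCTRL. The fitted log2 fold change was -2.29 ± 0.06 SE, which leaves 20.5% of the control level (adjusted p = 7.58e-11 under edgeR's quasi-likelihood test). Total counts were 6007630 to 7414040 in siMatrin3 and 4556658 to 8400412 in siCTRL libraries. Mitochondrially encoded genes took 9.80% to 11.6% of the counts in siMatrin3 and 9.03% to 10.2% in siCTRL, and genes of small RNAs 14.0% to 14.3% and 13.2% to 13.7%. The 8 markers of colorectal epithelium summed to 1918 to 2023 CPM in siMatrin3 and 1689 to 1857 CPM in siCTRL. All but VIL1 were high enough to test. Of these 7 KRT19 and EPCAM rose (edgeR adjusted p = 0.0106 and 0.0183), which is 28.6% called beside 10.9% of all genes tested. None of the 7 was called when estimated transcript lengths were used as an offset in the fit. EPCAM also lost its call without siMatrin3 replicate 2, siMatrin3 replicate 3 or siCTRL replicate 3. Fibroblast markers (7 genes, 4 at 0 in every library) summed to 19.3 to 23.2 CPM in siMatrin3 and 20.3 to 21.6 CPM in siCTRL. The sums of neural markers (6 genes, 1 at 0) were 60.9 to 72.1 and 66.6 to 69.3 CPM in these groups, those of blood markers (7 genes, 2 at 0) 0.312 to 1.78 and 0 to 0.881 CPM. Neither the 2 fibroblast nor the 2 neural markers high enough to test passed it, and no blood marker was high enough. The part of these markers in the results below was not tested.

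Each synthetase recognises its amino acid and the matching tRNAs, and the charged tRNA is carried to the ribosome by an elongation factor. Human cells keep separate nuclear genes for most cytosolic and mitochondrial enzymes, named with a final 1 and a final 2, while GARS1 and KARS1 supply both compartments. In the cytosol EPRS1, IARS1, KARS1, LARS1, MARS1, QARS1 and RARS1 join scaffold proteins in the multisynthetase complex, and EPRS1 fuses the glutamyl and prolyl enzymes in a single chain. Many cytosolic synthetase genes are known targets of ATF4, the transcription factor of the integrated stress response, which binds a short element with the core TGATGNAA.

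Since that element lies near the start of such genes, the RefSeq promoter windows (GRCh38.p14, 250 bases before to 50 after each start) were searched for TGATGNAA on both strands. A window was given for 30 of the 35 genes, all but AARS2, LARS1, VARS1, VARS2 and YARS1. The core was found in 7 of 16 cytosolic genes (43.75%) and in 1 of 14 mitochondrial genes (7.14%), and in 2.58% of 10318 tested genes with a window. A match is a description of letters, not evidence of binding. The 30 bases around each match are given in the direction of the gene, with the match in capitals. Where it lies on the opposite strand the capitals show its reverse complement.
CARS1 (chr11:3057407-3057436, minus strand): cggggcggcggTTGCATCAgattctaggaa
AARS1 (chr16:70289675-70289704, minus strand): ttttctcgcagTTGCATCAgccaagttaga
GARS1 (chr7:30594834-30594863, plus strand): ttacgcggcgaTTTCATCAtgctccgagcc
IARS1 (chr9:92293692-92293721, minus strand): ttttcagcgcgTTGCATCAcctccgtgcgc
MARS1 (chr12:57488053-57488082, plus strand): gccggttccggTTGCATCAgcgagggattc
NARS1 (chr18:57621804-57621833, minus strand): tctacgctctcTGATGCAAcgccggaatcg
TARS1 (chr5:33440956-33440985, plus strand): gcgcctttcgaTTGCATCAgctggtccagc
YARS2 (chr12:32756076-32756105, minus strand): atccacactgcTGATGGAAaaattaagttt

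In 6 of the 7 cytosolic genes the match read TGATGCAA, and in GARS1 it read TGATGAAA. The match of CARS1 began at position -2 relative to the RefSeq start, those of MARS1, IARS1 and GARS1 at -4, -13 and -33. AARS1 carried it at -187 from its RefSeq start. The annotated span of AARS1 on hg38 (70251983 to 70289707, minus strand) covers that match, so the position holds for the RefSeq start only. The E box CACGTG, searched in the same way, was found in IARS1 and in the mitochondrial genes CARS2, EARS2 and MARS2, that is in 6.25% of the cytosolic and 21.43% of the mitochondrial genes searched, and in 12.54% of tested genes.

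Across the 35 genes, 3 were higher in siMatrin3 and none was lower at an adjusted p under 0.05 by edgeR. All 3 encode cytosolic enzymes: CARS1, FARSA and RARS1. The counts were 3 of 19 cytosolic genes (15.8%) and 0 of 16 mitochondrial genes, where 5.68% of the 14334 genes tested were higher and 5.18% lower. The median log2 fold change was 0.14 for cytosolic and 0.06 for mitochondrial genes, with a median of 0.00 over all genes tested. Of the cytosolic genes, 16 had a positive and 3 a negative log2 fold change, in a range of -0.13 to 0.38. On log2(TPM + 1), where TPM is the abundance within a library after division by transcript length, this split was 9 to 10. The median of all genes tested was itself -0.09 on that scale. With effective lengths as offset in the edgeR fit the cytosolic split was 16 to 3. It was the same on log2(TPM + 1) centred on the median of each library. The mitochondrial genes were split into 8 positive and 8 negative, in a range of -0.38 to 0.27, and into 6 and 10 on log2(TPM + 1). With the length offset and on centred TPM they were split into 9 and 7. Without siMatrin3 replicate 1 the cytosolic count was 1 and the median 0.09, and the mitochondrial median was 0.09 without siCTRL replicate 1 and 0.10 without siCTRL replicate 2. The difference between the compartments was not tested.

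**Figure D1:**
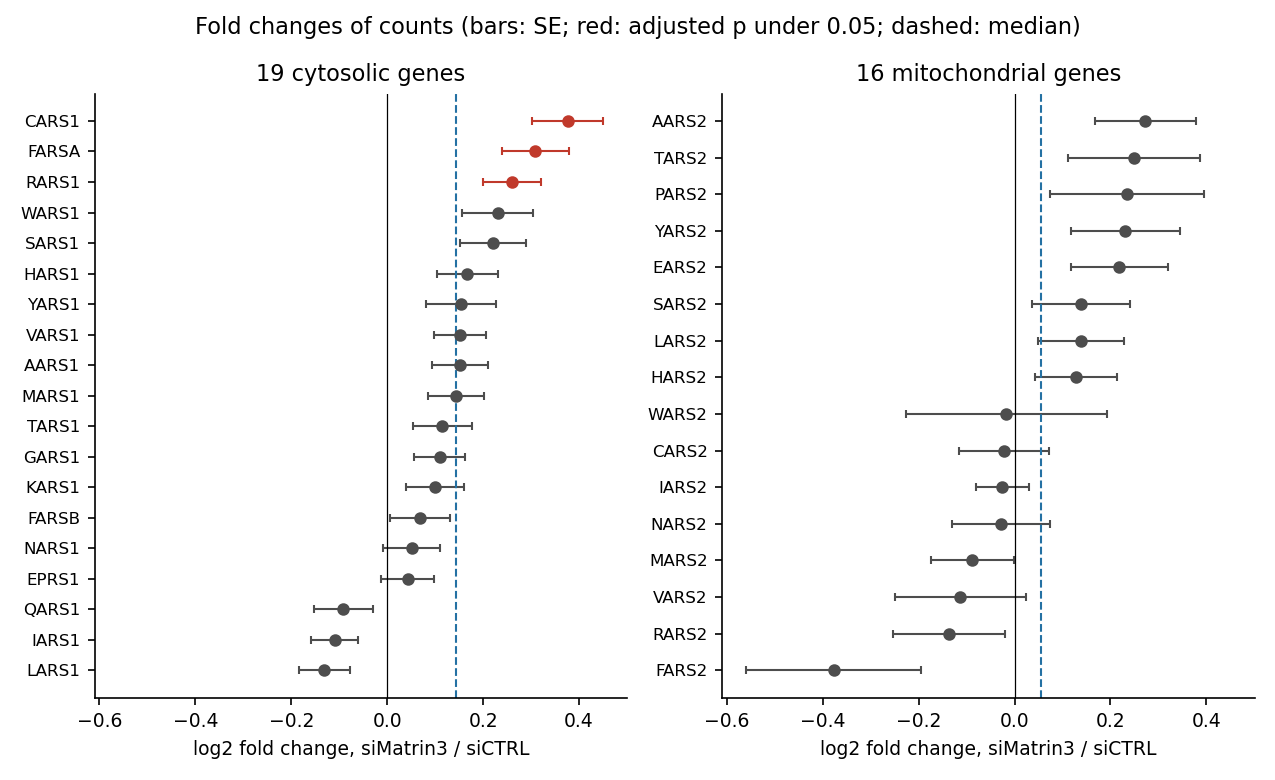
Log2 fold change of counts (x axis, siMatrin3 over siCTRL, 3 libraries each) for the 19 cytosolic genes on the left and the 16 mitochondrial genes on the right, where points are edgeR estimates, bars their SE, red marks an adjusted p under 0.05 and the dashed line is the median of each set. CARS1, FARSA and RARS1 lie at 0.26 to 0.38, and the mitochondrial points spread to both sides of 0 with wider bars.

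CARS1, cysteinyl-tRNA synthetase (ENSG00000110619, hg38 chromosome 11, 3000922 to 3057613, minus strand, 23 exons), had the largest rise of the cytosolic genes. It was at 64.1, 67.7 and 67.5 CPM in siMatrin3, against 54.6, 51.4 and 47.7 CPM in siCTRL. Every siMatrin3 library stood above every siCTRL library, also in TPM, where they held 26.0, 26.9 and 25.3 against 25.2, 23.4 and 19.8. The mean was 66.4 ± 2.06 CPM in siMatrin3 and 51.2 ± 3.44 CPM in siCTRL (SD, n = 3 each). The fitted log2 fold change was 0.38 ± 0.07 SE, a rise of 29.8%, at an edgeR adjusted p of 0.00595. Its exons overlap those of CARS1-AS1 on the opposite strand, which averaged 1.63 CPM in siMatrin3 and 1.28 CPM in siCTRL. The pseudogene CARS1P1 was at 0 in every library. In bulk RNA, a change per cell and a change in the share of cells that carry the transcript cannot be told apart.

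FARSA encodes the alpha subunit of cytosolic phenylalanyl-tRNA synthetase (ENSG00000179115, hg38 chromosome 19, 12922479 to 12934037, minus strand, 13 exons). Its level was 138, 127 and 129.6 CPM in siMatrin3, against 102, 116 and 99.9 CPM in siCTRL. The groups did not overlap, at a log2 fold change of 0.31 ± 0.07 SE and an edgeR adjusted p of 0.0131. The beta subunit of the same enzyme, FARSB, was at 115, 112 and 106 CPM in siMatrin3, against 109, 101 and 108 CPM in siCTRL. These values overlapped, and FARSB did not pass (log2 fold change 0.07 ± 0.06 SE, edgeR adjusted p = 0.555). The difference between the subunits was not tested. FARSA no longer passed without siMatrin3 replicate 1 (edgeR adjusted p = 0.0599), without siCTRL replicate 1 (0.0518) or without siCTRL replicate 3 (0.0752).

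RARS1, arginyl-tRNA synthetase, was the only member of the multisynthetase complex past the threshold (ENSG00000113643, hg38 chromosome 5, 168486451 to 168519301, plus strand, 15 exons). It held 147, 139.6 and 144 CPM in siMatrin3, against 126, 114 and 122 CPM in siCTRL. The lowest siMatrin3 library was above the highest siCTRL library, at a log2 fold change of 0.26 ± 0.06 SE and an edgeR adjusted p of 0.0145. In TPM the groups overlapped, at 71.5, 66.2 and 71.4 in siMatrin3 and 69.5, 58.7 and 70.9 in siCTRL. RARS1 did not pass without siMatrin3 replicate 1 (edgeR adjusted p = 0.0620), without siMatrin3 replicate 3 (0.0535) or without siCTRL replicate 2 (0.0658).

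**Figure D2:**
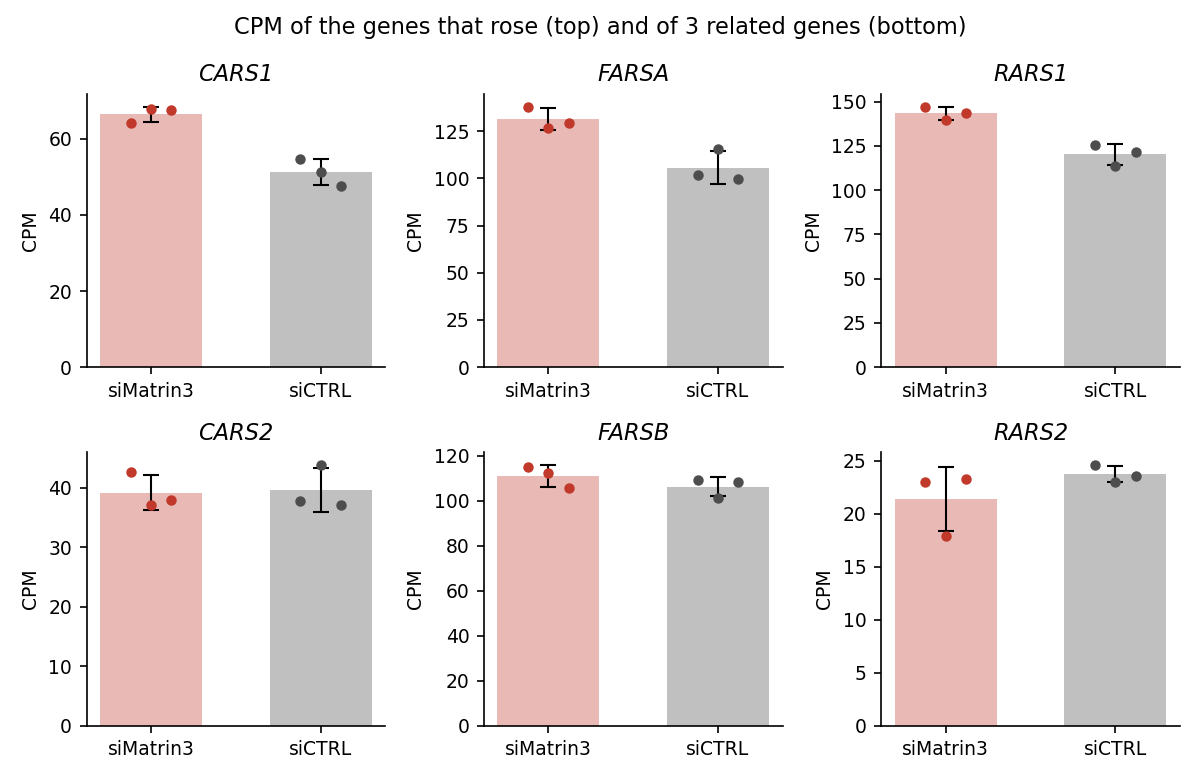
CPM on y axes that start at 0 and differ by panel, for the genes that rose (top) and 3 related genes that did not pass (bottom). Bar heights give the mean, whiskers the SD and dots each of the 3 libraries, with siMatrin3 on the left and siCTRL on the right. The groups are apart for CARS1, FARSA and RARS1 and overlap for CARS2, FARSB and RARS2.

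Several cytosolic genes lay near the threshold. SARS1, seryl-tRNA synthetase, was at 88.2, 88.4 and 85.6 CPM in siMatrin3, against 69.7, 75.1 and 79.8 CPM in siCTRL, without overlap (log2 fold change 0.22 ± 0.07 SE, edgeR adjusted p = 0.0552). WARS1, the tryptophanyl enzyme, which is also known as an interferon-induced gene, was at 106, 94.7 and 109.9 CPM in siMatrin3 and at 88.0, 83.5 and 94.7 CPM in siCTRL. The highest siCTRL and the lowest siMatrin3 library met there (log2 fold change 0.23 ± 0.07 SE, edgeR adjusted p = 0.0656). VARS1, the valyl enzyme, was the third of this kind (log2 fold change 0.15, edgeR adjusted p = 0.0920). With the replicate number as a block, SARS1 (edgeR adjusted p = 0.0346), WARS1 (0.0196) and VARS1 (0.0285) passed too, and the cytosolic count was 6 of 19. That fit called 2259 of 14334 genes in either direction, where the fit without the block called 1557. The pairing of same-numbered libraries was assumed from weak correlations of 0.104 to 0.157 and is not stated in the labels. WARS1 also passed without siMatrin3 replicate 2 (edgeR adjusted p = 0.0346).

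By CPM, 9 of the 19 cytosolic genes (47.4%) had all siMatrin3 libraries above all siCTRL libraries, 2 had them all below and 8 overlapped. Over all genes tested these shares were 15% above and 14.7% below. In TPM only CARS1 was fully above, 3 cytosolic genes were fully below and 15 overlapped, beside 5.48% and 18.4% of all genes tested. The median of all genes tested was itself shifted by -0.09 on the log2(TPM + 1) scale and by -0.10 on the log2(TPM + 0.1) scale. Relative to that shift the cytosolic median was 0.09 and 0.10 higher and the mitochondrial 0.06 and 0.07.

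The summed level of the cytosolic genes was 3338 to 3468 CPM in siMatrin3 and 3145 to 3242 CPM in siCTRL, without overlap. As a share of all counts, with no scaling between libraries, it was 0.322% to 0.341% in siMatrin3 and 0.325% to 0.329% in siCTRL, and the groups overlapped. They overlapped also in summed TPM, at 1306 to 1391 in siMatrin3 and 1350.2 to 1436 in siCTRL. The sums were thus apart after TMM scaling and not without it. With mitochondrially encoded and small RNA genes left out of the fit, CARS1, FARSA and RARS1 passed as before.

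The 3 cytosolic genes with a negative log2 fold change, IARS1, LARS1 and QARS1, are all members of the multisynthetase complex. IARS1, the isoleucyl enzyme, was at 422, 417 and 424 CPM in siMatrin3, against 474, 440.4 and 449 CPM in siCTRL (log2 fold change -0.11 ± 0.05 SE, edgeR adjusted p = 0.185). The leucyl enzyme LARS1 was at 166, 158 and 165 CPM in siMatrin3, against 184, 177 and 175 CPM in siCTRL (log2 fold change -0.13 ± 0.05 SE, edgeR adjusted p = 0.143). By CPM every siMatrin3 library stood below every siCTRL library for both, yet neither passed. In TPM this held for LARS1 but not for IARS1, whose groups overlapped. Of the 7 complex members, 1 rose (14.3%, beside 5.68% of all genes tested), 4 had a positive and 3 a negative log2 fold change, with a median of 0.04. Of the other 12 cytosolic genes 2 rose (16.7%) and all 12 had a positive value, with a median of 0.15. All 12 were positive also with effective lengths as offset, but on log2(TPM + 1) AARS1, FARSB, GARS1, NARS1 and TARS1 were negative. The difference between complex members and the other cytosolic genes was seen after the values were known and was not tested.

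The fold changes were also set beside the TGATGNAA core in the 16 cytosolic genes searched, with no test. Of the 7 carriers 1 rose, CARS1, and their median log2 fold change was 0.12, in a range of -0.11 to 0.38. Of the 9 cytosolic genes searched without a match 2 rose, FARSA and RARS1, with a median of 0.17. For the 13 genes listed as ATF4 targets, by background knowledge and not by these data, the count was 1 and the median 0.14, against 2 of 6 and 0.13 for the other cytosolic genes. Over all genes tested 5.68% rose. With 1 or 2 calls in each set, these counts cannot tell the sets apart.

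Among mitochondrial enzymes no gene passed edgeR's quasi-likelihood test in either direction, and none passed DESeq2. At an unadjusted p under 0.05 by edgeR, 2 of the 16 were higher, AARS2 and EARS2, and none lower. Of the 19 cytosolic genes 9 were higher and 2, IARS1 and LARS1, lower at that p, beside 12.8% higher and 12.3% lower of all genes tested. AARS2, the mitochondrial alanyl enzyme, was at 23.7, 24.7 and 24.0 CPM in siMatrin3, against 21.8, 19.7 and 18.7 CPM in siCTRL (log2 fold change 0.27 ± 0.10 SE, edgeR adjusted p = 0.119). The groups were apart in CPM but overlapped in TPM, and the mean effective length assigned to AARS2 was 4229 bases in siMatrin3 and 3677 bases in siCTRL. EARS2, which charges glutamate in mitochondria, was at 57.6, 45.4 and 60.2 CPM in siMatrin3 and at 43.6, 46.9 and 50.02 CPM in siCTRL. Of the siMatrin3 libraries only replicate 2 lay within the siCTRL range, and without that library EARS2 passed (log2 fold change 0.32, edgeR adjusted p = 0.0360), where it was 0.22 with an adjusted p of 0.197 in all 6.

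The largest negative value of the 35 genes was that of FARS2, the single-chain phenylalanyl enzyme of mitochondria. It was at 7.68, 8.71 and 10.4 CPM in siMatrin3, against 11.4, 13.3 and 9.69 CPM in siCTRL. The groups overlapped in CPM, and the log2 fold change of -0.38 ± 0.18 (SE) did not pass (edgeR adjusted p = 0.217). In TPM they did not overlap, at 5.16, 5.10 and 6.84 in siMatrin3 and 7.25, 8.43 and 7.06 in siCTRL. YARS2, the tyrosyl enzyme and the only mitochondrial gene with the TGATGNAA core, was at 37.2, 27.7 and 35.7 CPM in siMatrin3 and at 28.9, 30.3 and 26.6 CPM in siCTRL, with overlap (log2 fold change 0.23 ± 0.11 SE, edgeR adjusted p = 0.228).

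The depth behind the 2 sets differed. Cytosolic genes had 253 to 3747 counts per library and a median SE of 0.06 on the log2 scale, mitochondrial genes 38 to 1213 counts and a median SE of 0.10. A change of the size of RARS1 would therefore be harder to detect in the mitochondrial set. By CPM, 2 mitochondrial genes (12.5%), AARS2 and TARS2, had all siMatrin3 libraries above all siCTRL libraries, 1 had them all below (MARS2) and 13 overlapped, beside 15% above and 14.7% below of all genes tested. In TPM none was fully above and 3 were fully below, FARS2, IARS2 and MARS2 (18.8%), beside 5.48% and 18.4% of all genes tested.

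The levels of the 2 sets differed far more than the groups did. Levels between genes are given in TPM, as means over the 6 libraries with their SD. The cytosolic genes had a median of 68.4 TPM and the mitochondrial genes 15.2 TPM. IARS1 was the most abundant at 124 ± 13.1 TPM, followed by YARS1 (101 ± 10.01), KARS1 (99.0 ± 7.14) and TARS1 (98.6 ± 6.39), the tyrosyl, lysyl and threonyl enzymes, and these 3 did not differ beyond their spread. Of the mitochondrial genes, IARS2 led with 44.4 ± 5.18 TPM, before HARS2 (26.8 ± 1.54), CARS2 (25.8 ± 3.21) and YARS2 (22.2 ± 4.25), of which the last 3 lay within their spread. WARS2 (3.60 ± 0.877 TPM) and PARS2 (4.79 ± 0.531 TPM), the tryptophanyl and prolyl enzymes of mitochondria, were the lowest.

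Of the 19 cytosolic genes, 17 were above IARS2, and CARS1 (24.4 ± 2.53 TPM) and FARSB (15.4 ± 0.861 TPM) were not. FARSB had 106 CPM in siCTRL, as did its partner FARSA, but FARSA was at 67.2 ± 5.86 TPM. The effective length used for FARSB was 6957 bases in both groups, against 1753 and 1719 bases for FARSA in siMatrin3 and siCTRL. The low TPM of FARSB thus went with a long transcript model.

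**Figure D3:**
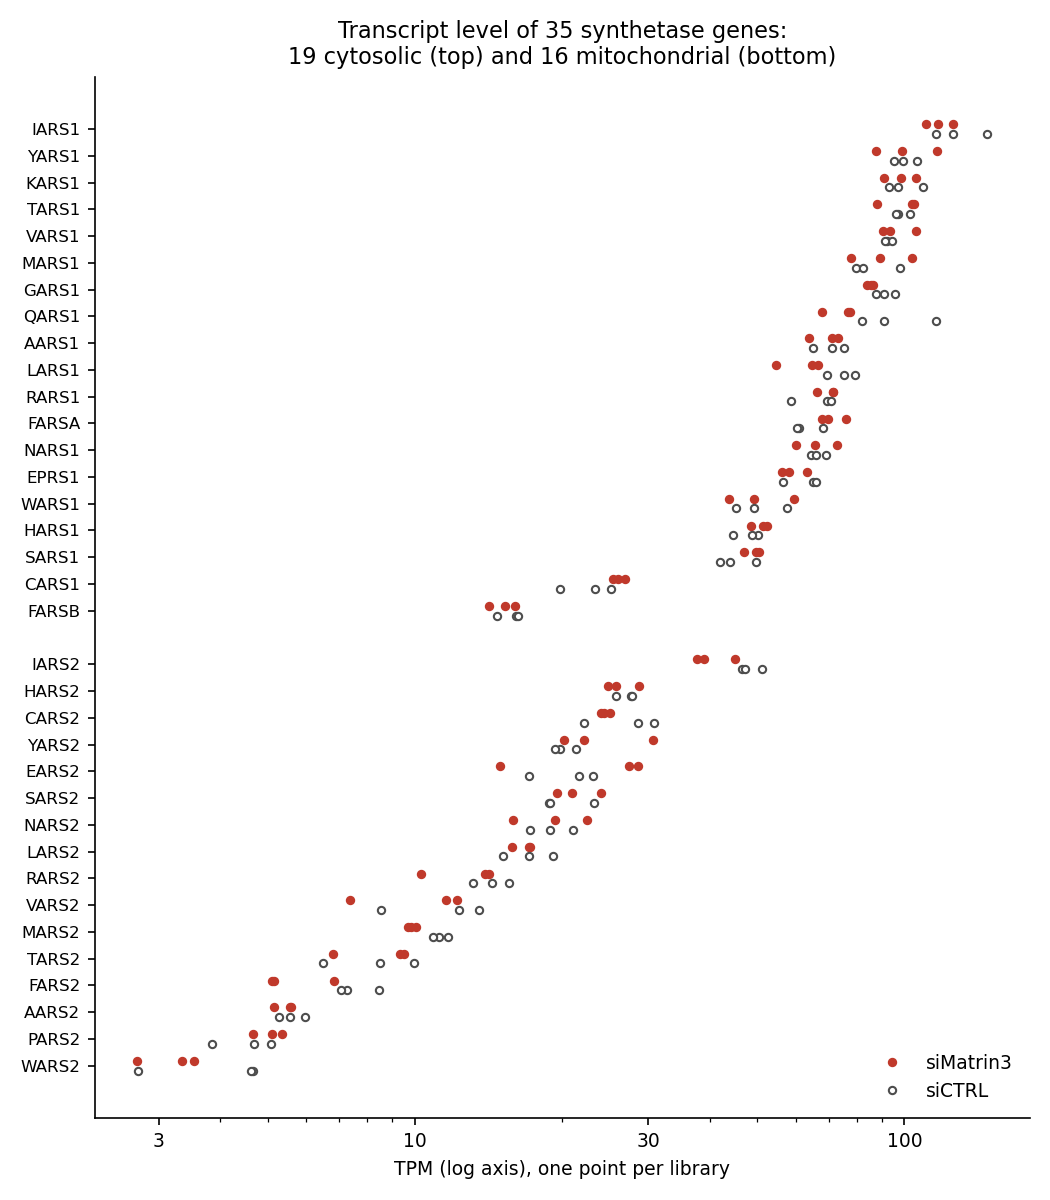
TPM (x axis, logarithmic) of the 35 genes in each library, with the 19 cytosolic genes at the top and the 16 mitochondrial genes at the bottom, each ordered by mean, where filled red points are siMatrin3 and open points siCTRL libraries. IARS1 is highest at a mean of 124 TPM and WARS2 lowest at 3.60 TPM, and for most genes the groups overlap.

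For 13 amino acids a cytosolic and a mitochondrial enzyme could be set beside each other in every library, as the log2 ratio of their TPM. The median cytosolic excess over these pairs was 4.15-fold in siMatrin3 and 4.62-fold in siCTRL. The ratio was higher in siMatrin3 on average for 9 pairs and lower for 4, and the groups overlapped for 11. No share was computed for ratios of other gene pairs, so the 2 pairs without overlap cannot be read as an excess. For cysteine the log2 ratio of CARS1 to CARS2 was 0.05, 0.14 and 0.08 in siMatrin3, against -0.18, -0.40 and -0.16 in siCTRL. The cytosolic transcript was thus above the mitochondrial in each siMatrin3 library and below it in each siCTRL library, with mean ratios of 1.06 and 0.840. CARS2 itself was at 42.7, 37.1 and 37.9 CPM in siMatrin3 and 37.8, 43.8 and 37.2 CPM in siCTRL (log2 fold change -0.02, edgeR adjusted p = 0.914).

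For arginine the log2 ratio of RARS1 to RARS2 was 2.33, 2.68 and 2.36 in siMatrin3, against 2.27, 2.16 and 2.19 in siCTRL. Here too the groups did not overlap. RARS2 was at 23.0, 17.9 and 23.2 CPM in siMatrin3 and at 24.6, 23.0 and 23.6 CPM in siCTRL (log2 fold change -0.14, edgeR adjusted p = 0.518), and the library with its lowest value, siMatrin3 replicate 2, had the highest ratio. The pair differences were not tested. CARS1 and RARS1 were chosen for their rise, so that a higher ratio follows in part from that choice.

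**Figure D4:**
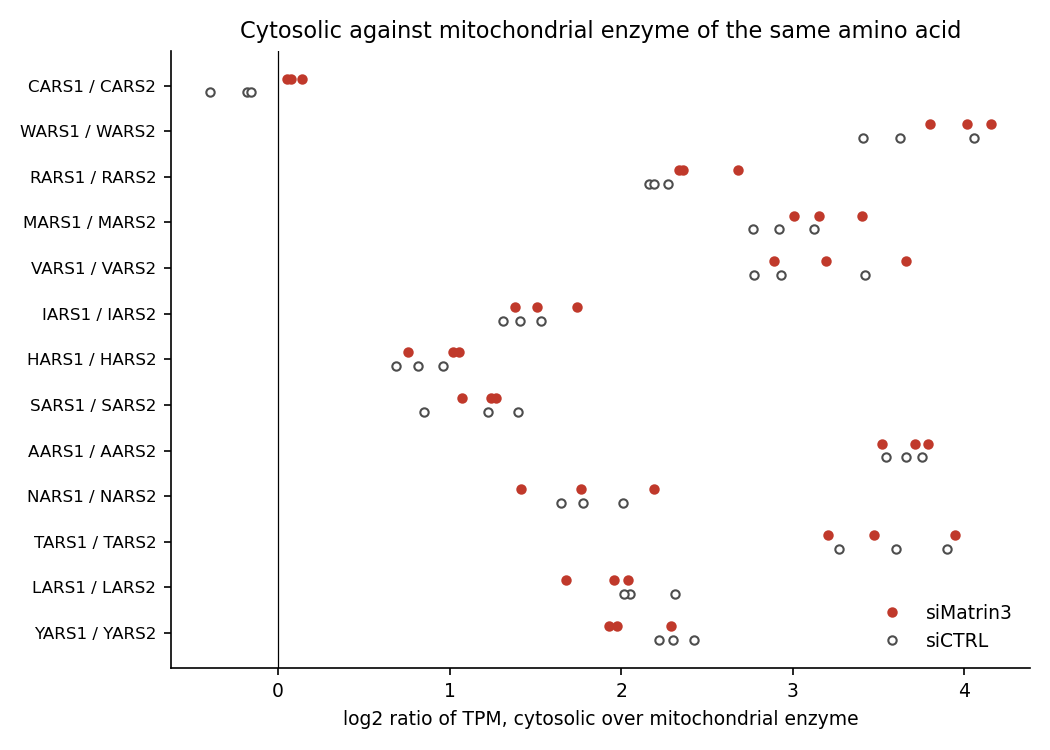
Log2 ratio of TPM (x axis) of the cytosolic over the mitochondrial enzyme of the same amino acid, 1 row for each of 13 pairs, with filled red points for siMatrin3 and open points for siCTRL libraries, and 0 for equal levels. Only the CARS1 to CARS2 ratio lies on both sides of 0, above it in siMatrin3 and below it in siCTRL.

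CPM and TPM differ by the TMM scaling, which the TPM lack, and by the effective length. RSEM averages this length over the isoforms of each gene with their estimated abundance as weight. Between the groups this length differed, on the log2 scale, by -0.09 to 0.16 among cytosolic genes and by -0.16 to 0.20 among mitochondrial genes. QARS1, the glutaminyl enzyme, had the largest shift of the cytosolic genes, at 1707 bases in siMatrin3 and 1532 bases in siCTRL. It was at 131, 139 and 129 CPM in siMatrin3 and at 135, 149.5 and 139 CPM in siCTRL, which overlapped, but at 76.8, 77.3 and 67.8 TPM against 90.7, 116 and 82.0 TPM, which did not. GARS1, the glycyl enzyme, was higher in every siMatrin3 library by CPM (193, 192 and 196, against 179, 187 and 173 in siCTRL) and lower in every one by TPM (85.6, 84.1 and 86.4, against 95.5, 87.6 and 90.8). Its direction therefore turned with the unit, and it did not pass by edgeR (log2 fold change 0.11, adjusted p = 0.223). With effective lengths as offset the log2 fold change of GARS1 was 0.009. On log2(TPM + 1) centred on the median of each library it was 0.008.

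With effective lengths as an offset in the edgeR fit, no synthetase gene passed, and only 204 of all genes tested did. The log2 fold changes remained positive at 0.30 for CARS1 (adjusted p = 0.216), 0.27 for FARSA (0.157) and 0.18 for RARS1 (0.330), and the median SE of the cytosolic genes was 0.09 in that fit. On log2(TPM + 1) with limma they were 0.19, 0.17 and 0.07, with no gene of the 35 past the threshold. Whether the length estimates reflect other isoforms or noise in the assignment of reads was not tested.

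**Figure D5:**
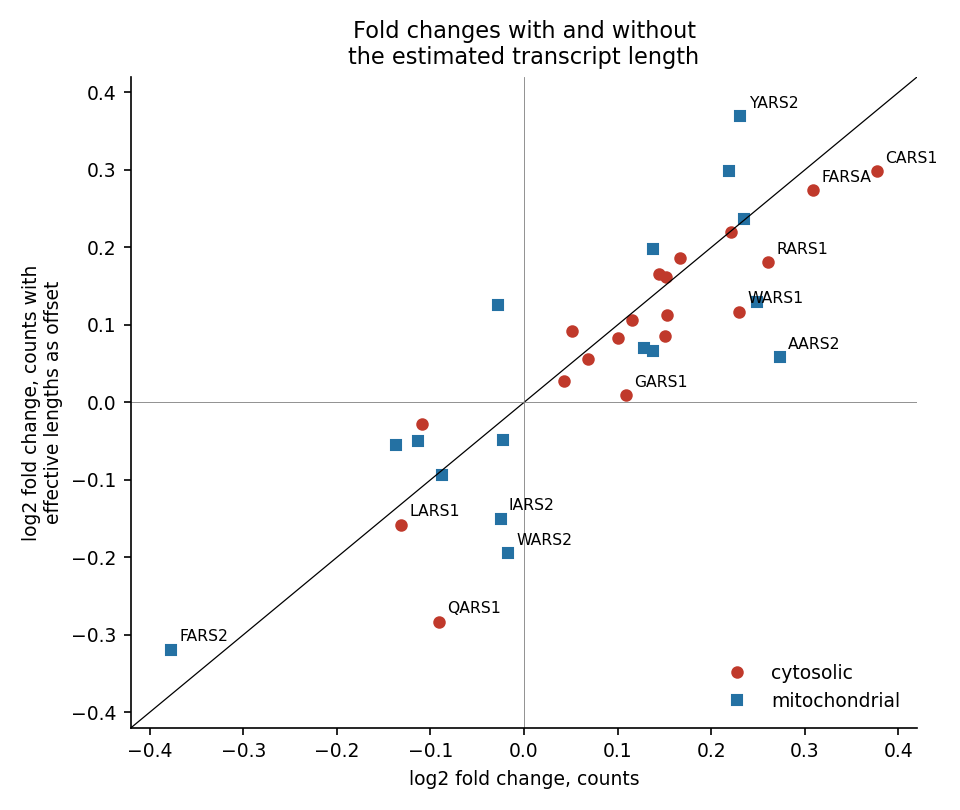
Log2 fold change (siMatrin3 over siCTRL) of the 35 genes from counts (x axis) and from counts with effective lengths as offset (y axis), where circles are cytosolic and squares mitochondrial genes, and the diagonal marks equal values. CARS1, FARSA and RARS1 stay positive at 0.30, 0.27 and 0.18 on the y axis, and QARS1 and AARS2 lie well below the diagonal.

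Other steps around tRNA charging were read from the same fit, in lists that were also chosen with earlier results of these data known. Of 8 genes for other charging enzymes, 1 rose (12.5% called, beside 10.9% of all genes tested): MTFMT, which adds the formyl group to the initiator methionyl-tRNA of mitochondria. It was at 25.1, 21.8 and 24.6 CPM in siMatrin3, against 11.01, 12.7 and 12.2 CPM in siCTRL, far apart (log2 fold change 0.99 ± 0.12 SE, edgeR adjusted p = 0.000299). It passed under all 18 alternatives tried, including the length offset and TPM. Of 18 genes for tRNA maturation, export and proofreading 2 rose and none fell, which is 11.1% called beside the same 10.9%. They were XPOT, the exportin that carries tRNAs out of the nucleus (173 ± 4.11 CPM in siMatrin3 and 131 ± 6.74 CPM in siCTRL, SD, n = 3 each), and NSUN2, a tRNA cytosine methyltransferase. Their log2 fold changes were 0.40 and 0.28, with edgeR adjusted p of 0.000951 and 0.0183. XPOT kept its call with each library left out and with the length offset (adjusted p = 0.0288 in edgeR), but not on log2(TPM + 1) (0.124 in limma). NSUN2 lost it without siMatrin3 replicate 1 (adjusted p = 0.0824 in edgeR), siMatrin3 replicate 3 (0.0588) or siCTRL replicate 2 (0.0797), and with the offset (0.260).

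Of 9 genes for the scaffold of the multisynthetase complex and cytosolic elongation factors, 3 rose and none fell. This was 33.3% called, beside 10.9% of all genes tested, in a list chosen with earlier results of these data known. AIMP2, a scaffold protein, had a log2 fold change of 0.42 (edgeR adjusted p = 0.0240). EEF1A2 and EEF1A1, which bring charged tRNAs to the cytosolic ribosome, had 0.35 and 0.19, with edgeR adjusted p of 0.000965 and 0.0275. The other scaffold genes, AIMP1 and EEF1E1, had log2 fold changes of 0.06 and -0.14 and did not pass. The list's median was 0.06. With effective lengths as offset the count was 1, EEF1A2 (adjusted p = 0.0334 in edgeR), and on TPM it was 0. In DESeq2 AIMP2 had an adjusted p of 0.0785. AIMP2 lost its call without siMatrin3 replicates 1 (adjusted p = 0.0656 in edgeR) or 2 (0.0813) or siCTRL replicates 2 (0.0807) or 3 (0.106), and EEF1A1 without siMatrin3 replicates 1 (0.0514) or 3 (0.108) or siCTRL replicates 1 (0.0815) or 3 (0.0884).

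On the mitochondrial side, 1 of 10 translation factor genes rose, TSFM, which recycles the mitochondrial elongation factor (log2 fold change 0.53, edgeR adjusted p = 0.00978). This was 10% called, beside 10.9% of all genes tested. TSFM did not pass with the length offset (adjusted p = 0.176 in edgeR) or on log2(TPM + 1) (0.223 in limma). Of 79 genes for mitochondrial ribosomal proteins 9 rose and 1 fell, with a median of 0.09, which is 12.7% called beside 10.9% of all genes tested. The rises were 8 of 49 genes named MRPL, of the large subunit, and 1 of 29 named MRPS, and this difference was not tested. MRPL18 led them, at 61.97 ± 3.16 CPM in siMatrin3 and 40.4 ± 2.59 CPM in siCTRL (SD, n = 3 each). The log2 fold changes of MRPL18, MRPL34 and MRPL50 were 0.61, 0.53 and 0.46, with edgeR adjusted p of 0.000397, 0.00590 and 0.0105. MRPS6, of the small subunit, fell (log2 fold change -0.51, edgeR adjusted p = 0.0107), but not without siCTRL replicate 3 (adjusted p = 0.0609). Its call was also lost with effective lengths as offset and on centred TPM, and kept on log2(TPM + 1). The 9 rises became 3 without siMatrin3 replicate 1 or siCTRL replicate 3, 4 without siMatrin3 replicate 3, and 1, MRPL18, with effective lengths as offset.

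Of 30 tested genes of amino acid supply and the integrated stress response, 12 rose and 2 fell (46.7% called, beside 10.9% of all genes tested), with a median of 0.22. The list was chosen with earlier results of these data known. PSAT1, an enzyme of serine synthesis, was at 145, 139.8 and 153 CPM in siMatrin3, against 80.7, 89.8 and 77.3 CPM in siCTRL (log2 fold change 0.81 ± 0.07 SE, edgeR adjusted p = 2.60e-05). ASNS, asparagine synthetase, EIF2AK1, a kinase of the initiation factor eIF2, and MTHFD2, a folate enzyme of mitochondria, rose too. Their log2 fold changes were 0.45, 0.29 and 0.28, with edgeR adjusted p of 0.00127, 0.00311 and 0.00801. ATF4 itself had 0.27 with an adjusted p of 0.0383, and did not pass with the length offset (0.165), on TPM, or without siMatrin3 replicate 1 (0.127), siMatrin3 replicate 2 (0.101), siCTRL replicate 1 (0.0565) or siCTRL replicate 3 (0.153). The count of rises was 4 without siCTRL replicate 3, 5 without siMatrin3 replicate 1 and 1, PSAT1, with the length offset. The falls were PPP1R15B, a phosphatase subunit that reverses eIF2 phosphorylation, and SLC7A5, an amino acid transporter (log2 fold changes -0.19 and -0.24, edgeR adjusted p = 0.0352 and 0.0408). Their count was 1 without siMatrin3 replicate 1, and 0 with any other library left out or with the length offset. The other 16 tested genes of the list did not pass, among them ATF3, DDIT3, CEBPB, TRIB3, CHAC1 and PPP1R15A. These 6 had log2 fold changes of 0.02, 0.20, 0.11, 0.24, 0.79 and -0.11, with edgeR adjusted p of 0.979, 0.700, 0.625, 0.125, 0.128 and 0.627. The SE of ATF3, DDIT3 and CHAC1 were 0.26, 0.27 and 0.31, so a change of the size of ATF4 would be harder to detect in them. Nearest the threshold were SHMT2 and SLC7A1 (log2 fold changes 0.20 and 0.19, edgeR adjusted p = 0.0503 and 0.0693).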

How the data were processed

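Total RNA of HCT116 cells was profiled in 3 siMatrin3 and 3 siCTRL libraries. Per the labels and the study's methods, the authors trimmed reads with cutadapt, aligned them to hg19 with TopHat and quantified genes with RSEM. The deposited expected counts are RSEM's estimates per gene and were not scaled across libraries. The deposited TPM are relative to the total of their own library, and the authors' effective lengths are in bases. Annotation release and strand setting were not given in the sources used here, so that reads of overlapping genes (26 of the 35 genes overlap another, 8 in exons) may be shared by estimate. The sample labels name a stranded mRNA kit, whereas the methods describe ribosomal RNA depletion.

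IDs were matched to GENCODE release 44 on hg38 (58472 of 58884, 99.3%), and positions are those of hg38, taken by ID. Expected counts were rounded, filtered with edgeR's filterByExpr (minimum count 10, minimum total 15), scaled by TMM and tested with edgeR 4.0.16 (quasi-likelihood, two-sided, R 4.3.3). P-values were adjusted by Benjamini-Hochberg over 14334 genes at 0.05. Each SE is the size of the log2 fold change over the root of its F value. The biological coefficient of variation was 6.44%. No pair of libraries agreed within sampling noise, and p-values measure the spread between cultures of 1 line.

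Same-numbered libraries deviated together (correlations of deviations 0.104, 0.107 and 0.157, other combinations -0.084 to -0.024). Deviations within each group sum to 0, so the negative values follow from the positive ones and add no support. The pairing is therefore an assumption, and the replicate numbers were used as a block only in an alternative. Other alternatives were RLE and upper-quartile scaling, no count filter or a minimum count of 50, leaving out mitochondrially encoded and small RNA genes, effective lengths as offset, each library left out, DESeq2 1.42.0, limma 3.58.1 on log2(TPM + 1) and log2(TPM + 0.1), and an adjusted p of 0.01. A TPM fit centred on the median of each library was chosen after seeing the data.

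The genes and lists were chosen with earlier results of these data known. Named genes are MATR3, those past the threshold with their partners, the 4 with the highest TPM and the 2 nearest the threshold in each compartment, the 2 with the lowest TPM, and at most 4 genes past the threshold of each pathway list by lowest p. LARS1, QARS1, FARSB, FARS2, GARS1, VARS1, TARS2, MARS2, AARS1, EPRS1, NARS1, ATF4, PPP1R15B, SLC7A5, AIMP1, EEF1E1, KRT19 and EPCAM were named after their values were seen, as were genes with a promoter match. So were ATF3, DDIT3, CEBPB, TRIB3, CHAC1, PPP1R15A, SHMT2 and SLC7A1. Promoter sequences are RefSeq's. Protein sequences were not used here.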

Additional observations from a re-analysis of the deposited data

How the results depend on the processing

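The cytosolic count of 3 higher genes was 5 with no count filter, 6 with the replicate block, 1 at an adjusted p of 0.01, and 0 with effective lengths as offset, on log2(TPM + 1), on log2(TPM + 0.1) and on centred TPM. It was 1 to 4 with each library left out, and the mitochondrial count 0 to 1. No synthetase gene was lower under any alternative. The cytosolic median of 0.14 was 0.11 with the offset, 0.00 (-0.0013) on both TPM scales, 0.10 on centred TPM, and 0.0894 to 0.159 with each library left out. The mitochondrial median of 0.06 was -0.04 on log2(TPM + 1) (-0.036) and log2(TPM + 0.1) (-0.0394), and 0.05 to 0.10 with each library left out. Over all genes, 814 higher and 743 lower calls were 99 and 105 with the offset, 31 and 118 on log2(TPM + 1), 30 and 102 on log2(TPM + 0.1), 32 and 26 on centred TPM, 294 and 295 at an adjusted p of 0.01, and 350 to 631 and 357 to 625 with each library left out. DESeq2 called 473 lower. CARS1 passed in 14 of 18 alternatives, and FARSA and RARS1 in 10 each. The replicate block changed no call of a synthetase other than SARS1, WARS1 and VARS1. With it, rises were 15 rather than 12 among stress response genes, 4 rather than 3 among scaffold and elongation factor genes and 3 rather than 2 among tRNA maturation genes, and 1203 genes were higher and 1056 lower over the whole table.

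On log2(TPM + 1) and log2(TPM + 0.1) 9 cytosolic genes were positive and 10 negative. They were 16 and 3 in counts, with effective lengths as offset and on centred TPM. On log2(TPM + 1) and log2(TPM + 0.1), KARS1 was at -0.0212 and -0.0214, TARS1 at -0.0013 on both, HARS2 at -0.0364 and -0.0377, AARS2 at -0.0356 and -0.0412, FARSB at -0.0477 and -0.0505, GARS1 at -0.0952 and -0.0962, AARS1 at -0.0218 and -0.0221, EPRS1 at -0.0778 and -0.0789, and NARS1 at -0.0119 and -0.0121. AARS2 was at 0.27 and AARS1 at 0.15 in counts, and the rest of these between 0.04 and 0.13. On log2(TPM + 1) centred on the median of each library all of these were positive, from 0.008 (GARS1) to 0.102 (TARS1). WARS2 was at 0.000721 with no count filter and between -0.182 and 0.0695 with each library left out, CARS2 between -0.0922 and 0.0729, and EPRS1 between -0.00736 and 0.0802. The cause of these changes was not tested. Depth limits the mitochondrial genes, of which WARS2 had the largest SE, 0.21.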
